A study of Mus musculus with 12 samples.

Results

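The comparison described here sets 6 single blastomeres of experiment 2 against 6 of experiment 1, which together are all 12 samples of the study. It was read gene by gene over the transcripts that every array measured: 5858 of the 41174 probes, for 4756 of the 21140 named genes, were well above background on all 12 arrays in the channel that held the RNA. All cells came from 2-cell embryos of CF-1 mice, an outbred stock, conceived by natural mating and flushed from the oviduct about 36 h post coitus. Each embryo was opened and its cells were parted by micromanipulation, and the RNA of 1 cell went onto 1 Agilent whole mouse genome array after amplification of its poly(A) fraction. The embryos of experiment 1 are named pairs D, I and L and those of experiment 2 are pairs D, G and H, with 6 cells in each experiment. The letter D was read as naming a different embryo in each experiment. No treatment, genotype or age separates the experiments in the labels, which give both the same strain, stage and protocol.

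The experiments did differ in how the arrays were read. The labels name Cy3 for every sample, but the signal of experiment 1 lies in the Cy5 channel of a 2-channel scan, while experiment 2 was scanned in Cy3 alone. Each of the 4 slides held cells of a single experiment. Dye, scan protocol and slide therefore cannot be told apart from the experiment in any result below, and the labels do not say whether the embryos of an experiment came from separate mothers, so p-values measure only the spread between these cells. Between 22.1 and 41.7% of the spots were well above background on the arrays of experiment 1 and between 31.2 and 78.8% on those of experiment 2, and no spot was saturated.

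The mouse embryo at this stage is leaving maternal control. The egg stores transcripts that the embryo translates and then destroys, while the embryonic genome is switched on in a minor and then a major wave. The major wave comes in the 2-cell stage and carries genes for ribosomes, RNA processing and transcription, besides short-lived transcripts that are characteristic of the stage itself. The 2-cell stage is also a long cell cycle with an extended G2 phase, so the levels of genes for replication and mitosis can depend on where in the cycle a cell was taken.

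Levels are log2 signals relative to the 75th percentile of the measured probes of the same array, so 0 marks that percentile. A level can be compared between cells for 1 probe but not between probes. Sums over marker lists, shares of these sums and ranks by signal below therefore describe probe signals, not amounts of RNA. Where a gene had several measured probes, the one with the highest mean over the cells stood for it. Differences are experiment 2 minus experiment 1, from limma with the embryo as a random block. A gene is called where its Benjamini-Hochberg adjusted p was under 0.05.

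The experiments differed in many transcripts. Of the 4756 measured genes, 494 (10.4%) were called higher in experiment 2 and 532 (11.2%) were called lower, which makes 21.6% called in all, and 1687 had an unadjusted p under 0.05. Each class count below is to be read beside these shares. The median fold of the called genes was 2.72 for those higher and 3.39 for those lower. Large differences were mostly on the lower side: 193 genes (4.06%) were called lower by over 4-fold, against 44 (0.925%) called higher by as much, and 56 against 2 passed 8-fold. The lowest level counted as well above background averaged -6.35 log2 units on the arrays of experiment 2 and -5.24 on those of experiment 1. A measured gene could therefore be followed further down in experiment 2, and the part of this in the imbalance was not tested. The cells of the experiments did not overlap at all in 717 genes (15.1%), of which 355 (7.46%) were higher and 362 (7.61%) lower. For 665 of the 1026 called genes the cells were apart in this way.

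Cells of different experiments were also farther from each other than cells within one. The root-mean-square distance over the measured probes was 1.45 log2 units between cells of different experiments (SD 0.147, n = 36 pairs of cells). It was 1.12 between cells of the same experiment that were not twins (SD 0.156, n = 24) and 0.91 between twins (SD 0.125, n = 6). Apart from the twins, the pairs share cells and are not independent. The nearest cell of each of the 12 cells belonged to its own experiment. The typical standard error of a difference was 0.41 log2 units, so the 95% interval of a gene reached 0.88 units to each side. At that precision 597 genes had an interval within 1 log2 unit of 0 and 0 genes had one within 0.5 units. Near the threshold among named probes, Tusc3 lay just inside at 1.04 log2 units (adjusted p = 0.0497 in limma). Mrfap1 lay just outside at -0.99 (adjusted p = 0.0502 in limma). Both were picked for that position, beyond the rule for naming genes.

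How the called probes divide between the directions depended on how the arrays were put on a common scale. Of the 1242 called probes 48.7% were higher in experiment 2, against 63.9% of 1432 in the authors' deposited value table and 32.3% of 1295 after normexp background correction. Scaling on the 75th percentile of all probes, measured or not, gave 103 calls, of which 5.8% were higher. The median difference of all probes was 0.01 log2 units in the fit reported here, -0.28 after normexp and 0.20 in the deposited table. Of the 1026 called genes, 1025 had the same sign after normexp. For the measured probes the deposited table differs from these signals by 1 constant per array, so its shift is common to all measured genes.

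**Figure D1:**
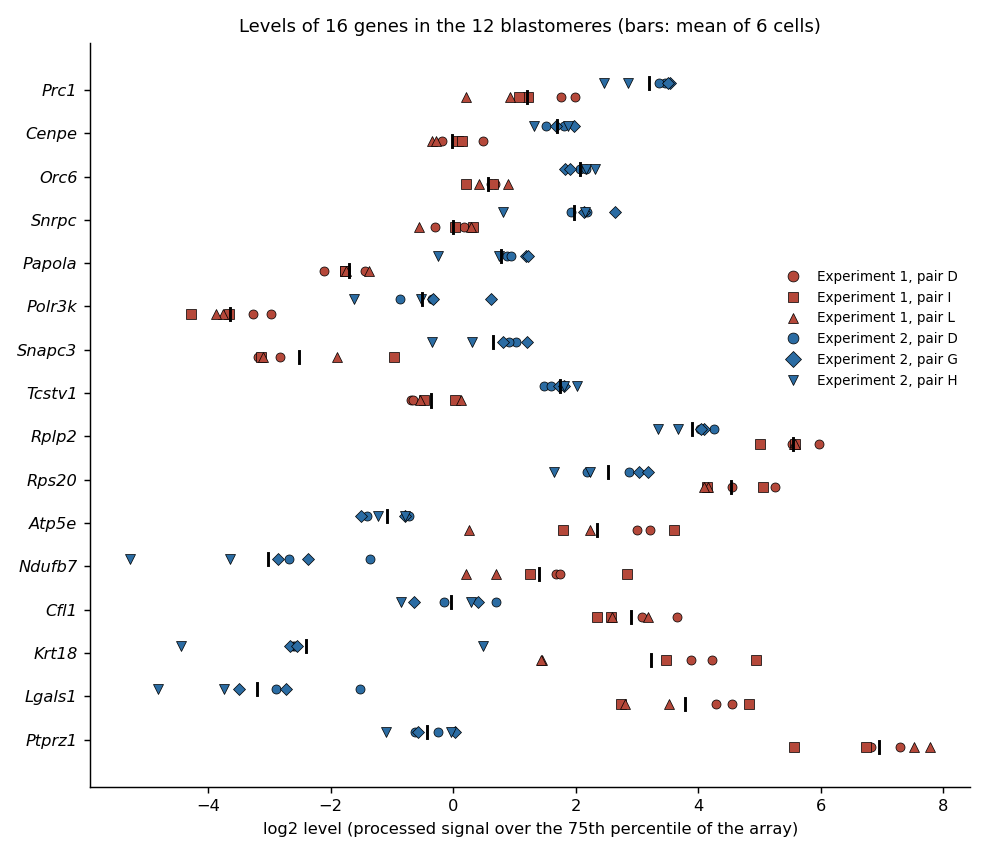
Levels of 16 genes (rows) in the 12 cells, as log2 signal relative to the 75th percentile of the measured probes of the array (horizontal axis), with 1 point per cell, coloured by experiment and shaped by embryo, and a bar at the mean of 6 cells. From Prc1 to Tcstv1 all cells of experiment 2 lie above those of experiment 1, and from Rplp2 to Ptprz1 they lie below.

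Genes of G2 and mitosis were higher in experiment 2. Of 84 listed genes 52 were measured, and 18 were called higher against 1 lower, beside the 10.4% and 11.2% of all measured genes. The median of the list was 0.87 log2 units, a fold of 1.83, beside 0.01 for all measured genes, and 45 of the 52 differences were positive. The called genes include parts of the centromere, of the spindle and of the machinery that closes the cell after division.

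Prc1, which bundles the microtubules of the central spindle, had levels from 0.21 to 1.99 in experiment 1 with a median of 1.15, and from 2.45 to 3.54 with a median of 3.41 in experiment 2. It was 4.0-fold higher in experiment 2 (95% interval 2.37 to 6.76, adjusted p = 0.00213 in limma), with no overlap between the experiments. Cenpa, the histone variant that marks the centromere, ranged from -1.60 to -0.67 (median -1.08) in experiment 1 and from 0.09 to 0.50 (median 0.22) in experiment 2. All 6 cells of experiment 2 were above all 6 of experiment 1, by a fitted 2.62-fold (95% interval 1.76 to 3.90, adjusted p = 0.00338 in limma). Cenpe, a kinesin that carries chromosomes to the spindle equator, ranged from -0.35 to 0.49 (median -0.05) and from 1.31 to 1.97 (median 1.74). The cells of Cenpe were likewise apart, at 3.27-fold (95% interval 2.17 to 4.93, adjusted p = 0.0013 in limma). Sgo2a, a shugoshin that protects the cohesion of sister chromatids, lay between -4.68 and -1.66 (median -2.60) in experiment 1 and between -0.97 and 0.04 (median -0.43) in experiment 2. Its difference was 5.02-fold (95% interval 2.45 to 10.3, adjusted p = 0.00512 in limma), again without overlap.

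The member called lower was Anapc13, a small subunit of the anaphase-promoting complex. It ranged from -2.28 to 2.21 (median 0.26) in experiment 1 and from -6.86 to -1.74 (median -2.79) in experiment 2, so that the experiments overlapped. Anapc13 was 10.0-fold lower (95% interval 2.49 to 40.3, adjusted p = 0.0219 in limma), and the call was lost in embryo means and without pair D or pair I of experiment 1. The count of mitotic genes called higher was 10 without pair G and 12 without pair D of experiment 2, and 0 with the scale taken from all probes, where the median of the list was still above 0. Bub3, a spindle checkpoint protein picked out here after its values were seen, was called higher by its brighter probe at 1.95 log2 units, while another probe of the gene stood at -0.88 and was not called.

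Promoters of mitotic genes are known for a CCAAT box and for the cell cycle homology region, a short element that lies close to the start site. RefSeq promoters of build GRCm38.p6, from 250 bases before to 50 after the start, were matched for 46 of the 52 measured genes of G2 and mitosis and searched on both strands. The element TTTGAA was found in 21 of the 46 (45.7%), beside 445 of 3805 promoters of measured genes (11.7%) and 18.1% of the 27025 promoters in the table. CCAAT was found in 31 of the 46 (67.4%), beside 39.6% and 37.9%. Among the 18 genes called higher, 16 had a promoter, 8 of these held TTTGAA and 15 held CCAAT. The following 4 promoters, of called genes that hold both elements and were picked after their values were seen, are shown 5′ to 3′ on the strand of the gene from 250 bases before the start to 25 from it, with every CCAAT or ATTGG and every TTTGAA or TTCAAA in capitals.
Prc1: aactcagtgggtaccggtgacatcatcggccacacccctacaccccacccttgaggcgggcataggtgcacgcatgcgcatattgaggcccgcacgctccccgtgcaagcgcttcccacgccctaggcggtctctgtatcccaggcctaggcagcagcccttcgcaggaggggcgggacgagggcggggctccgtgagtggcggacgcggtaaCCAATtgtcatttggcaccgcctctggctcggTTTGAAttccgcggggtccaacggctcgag
Cenpa: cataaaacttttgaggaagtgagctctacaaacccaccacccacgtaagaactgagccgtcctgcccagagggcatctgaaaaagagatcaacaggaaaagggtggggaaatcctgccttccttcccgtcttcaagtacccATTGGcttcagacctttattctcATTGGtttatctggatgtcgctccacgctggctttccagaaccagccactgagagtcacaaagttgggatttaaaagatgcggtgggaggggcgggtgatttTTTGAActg
Cdca8: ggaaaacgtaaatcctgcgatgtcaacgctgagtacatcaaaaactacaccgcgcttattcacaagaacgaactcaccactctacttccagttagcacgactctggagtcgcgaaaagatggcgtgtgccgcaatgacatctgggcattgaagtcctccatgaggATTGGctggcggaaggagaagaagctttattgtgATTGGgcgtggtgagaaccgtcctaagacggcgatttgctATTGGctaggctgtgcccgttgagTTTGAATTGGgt
Ect2: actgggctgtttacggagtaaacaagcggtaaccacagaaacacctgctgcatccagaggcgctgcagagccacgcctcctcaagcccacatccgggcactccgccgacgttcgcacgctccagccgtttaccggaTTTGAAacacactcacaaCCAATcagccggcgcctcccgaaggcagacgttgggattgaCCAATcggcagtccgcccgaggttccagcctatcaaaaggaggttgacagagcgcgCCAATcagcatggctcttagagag

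The stretches lie at chr7:80294201-80294475 (plus strand) for Prc1, chr5:30666636-30666910 (plus strand) for Cenpa, chr4:124936893-124937167 (minus strand) for Cdca8 and chr3:27153854-27154128 (minus strand) for Ect2. Each holds TTTGAA once, at base -5 from the start in Prc1, 17 in Cenpa, 14 in Cdca8 and -114 in Ect2, and CCAAT on either strand 1, 2, 4 and 3 times in this order. In Cdca8 the element and the last ATTGG share bases. Cdca8 encodes a member of the chromosomal passenger complex and was 2.69-fold higher in experiment 2, and Ect2, which starts cytokinesis at the cell cortex, was 2.82-fold higher. A match is a description of the letters in these windows and was not tested against the levels.

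Replication genes were higher on balance, with 2 called lower. Of 40 measured genes of S phase 10 were called higher, with a median of 0.62 log2 units, and 31 of the 40 differences were positive. Gmnn, the replication inhibitor geminin that is kept until mitosis, ranged from -0.60 to 0.85 (median 0.34) in experiment 1 and from 1.29 to 2.82 (median 2.43) in experiment 2, at 3.74-fold (95% interval 2.16 to 6.48, adjusted p = 0.00354 in limma). Orc6, of the origin recognition complex, ranged from 0.21 to 0.89 (median 0.63) and from 1.82 to 2.31 (median 2.11). Neither gene overlapped between the experiments, and Orc6 was 2.82-fold higher (95% interval 1.94 to 4.10, adjusted p = 0.00159 in limma). Lower in experiment 2 were Uhrf1, which guides DNA methylation to newly copied strands, and the DNA ligase Lig1 at 2.27-fold. Lig1 lost its call under 6 alternatives, among them embryo means and leaving out pair L of experiment 1 or any embryo of experiment 2. Uhrf1 ranged from -0.08 to 0.54 (median 0.29) in experiment 1 and from -2.03 to -0.90 (median -1.62) in experiment 2, 3.38-fold lower with no overlap (95% interval 2.14 to 5.32, adjusted p = 0.00198 in limma). The element TTTGAA was in 3 of the 34 promoters matched for the S phase list (8.82%), and CCAAT in 18 (52.9%). With the scale from all probes 0 replication genes were called in either direction.

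Transcripts of embryonic genome activation were mostly higher in experiment 2. Only 18 of the 34 listed genes were named on the array, 15 were measured, 6 were called higher and 0 lower, and the median was 0.64 log2 units. Of the 15 differences 12 were positive and 3 negative, down to -1.01. The blastomere marker Zscan4c had signals from 0.152 to 1.22 (median 0.479) in experiment 1. In experiment 2 its signals ran lower, from 0.092 to 1.16 (median 0.213), with overlap. Tcstv1, a gene that is transcribed mainly at the 2-cell stage, ranged from -0.69 to 0.12 (median -0.51) in experiment 1 and from 1.48 to 2.01 (median 1.77) in experiment 2. It was 4.31-fold higher without overlap (95% interval 2.87 to 6.46, adjusted p = 3.58e-04 in limma). Its close relative Tcstv3, which its probe may not fully separate, ranged from -0.05 to 0.87 (median 0.48) and from 1.26 to 2.34 (median 1.95), 2.74-fold higher (adjusted p = 0.00472 in limma). Tdpoz1, of a family of TRAF and POZ domain proteins of the early embryo, ranged from -4.09 to -2.18 (median -2.26) and from -1.04 to -0.35 (median -0.84), 3.63-fold higher (adjusted p = 0.00415 in limma). The cells of Tcstv3 and of Tdpoz1 were apart as well. Ddit4l, an inhibitor of the growth pathway around the kinase mTOR, was 2.38-fold higher (adjusted p = 0.0078 in limma). With 1 embryo left out the count called higher was 4 or 5, and with the scale from all probes it was 0, with a median that stayed above 0.

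Stored maternal transcripts showed no such shared direction. Of 37 measured oocyte genes 3 were called higher and 5 lower, with a median of 0.26 log2 units, and of 28 genes for the storage and decay of maternal RNA 2 were called higher and 1 lower. The oocyte count called higher moved with single embryos, to 10 without pair L of experiment 1 and to 1 without its pair I or without pair D of experiment 2. Oog4, an oocyte protein with leucine-rich repeats, ranged from -3.06 to -0.27 (median -2.55) in experiment 1 and from -0.40 to 0.73 (median 0.10) in experiment 2. It was 4.96-fold higher (95% interval 2.39 to 10.3, adjusted p = 0.00582 in limma), although the highest cell of experiment 1 lay inside the range of experiment 2. Zar1, a binder of maternal RNA that the first division requires, was 3.94-fold lower (95% interval 1.93 to 8.05, adjusted p = 0.0107 in limma). Its cells were apart, from -2.81 to -1.88 (median -2.75) against -6.29 to -3.52 (median -4.30). Ybx2, which packs maternal messages into particles, ranged from 3.26 to 4.99 (median 3.95) and from 1.10 to 2.65 (median 1.91), 4.39-fold lower without overlap (95% interval 2.34 to 8.24, adjusted p = 0.00403 in limma). Among the partners of the subcortical maternal complex, Khdc3 was 5.78-fold and Tle6 2.23-fold lower (adjusted p = 0.00627 and 0.0188 in limma). Tle6 lost its call without pair D or pair I of experiment 1, without pair H of experiment 2 and with the scale from all probes.

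The machinery that makes and processes RNA was higher in experiment 2. Of 58 measured spliceosome genes 16 were called higher and 1, Sart1, lower, with a median of 0.61 log2 units, and Sart1 lost its call under 21 of 29 alternatives. Snrpc, a protein of the U1 particle that reads the start of an intron, ranged from -0.56 to 0.32 (median 0.10) and from 0.82 to 2.64 (median 2.14), 3.95-fold higher (95% interval 2.28 to 6.84, adjusted p = 0.00288 in limma). Sf3b6, which touches the branch point, ranged from -2.70 to -1.49 (median -1.98) and from -1.09 to 1.07 (median -0.03), 3.91-fold higher (adjusted p = 0.00384 in limma). Both genes were apart in all cells. Without single embryos the count of spliceosome genes called higher lay between 6, without pair D of experiment 1, and 13, without pair H of experiment 2. It was 7 without pair I of experiment 1 and also without pair D or pair G of experiment 2. It was 6 in embryo means and 0 with the scale taken from all probes, and it ran from 8 to 16 with any 1 cell left out.

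Among 45 measured genes of the RNA polymerases and general transcription factors, 11 were called higher and 0 lower, with a median of 0.30 log2 units. The 2 largest differences in this direction among the probes that stand for their genes were here. Snapc3, of the complex that starts transcription of small nuclear RNA genes, ranged from -3.19 to -0.96 (median -2.97) and from -0.35 to 1.21 (median 0.86), 9.02-fold higher (95% interval 4.31 to 18.9, adjusted p = 0.0011 in limma). Polr3k, a subunit of RNA polymerase III, ranged from -4.28 to -2.97 (median -3.71) and from -1.63 to 0.62 (median -0.44), 8.70-fold higher (95% interval 4.77 to 15.9, adjusted p = 3.58e-04 in limma). Neither overlapped, and both were called under every alternative tried. The poly(A) polymerase Papola, which adds the tails of messenger RNA, ranged from -2.12 to -1.38 (median -1.75) and from -0.26 to 1.23 (median 0.90). It was 5.61-fold higher (95% interval 3.46 to 9.1, adjusted p = 3.96e-04 in limma), without overlap. Of 10 measured genes of polyadenylation and cleavage 4 were called higher, and the scaffold Sympk was called lower by 3.2-fold. Without pair I of experiment 1, or pair D or pair G of experiment 2, 7 polymerase and general factor genes were called higher, as after normexp, and with the scale from all probes 2 were. The polyadenylation count called higher was 2 without pair G of experiment 2 or after normexp and 0 with the scale from all probes.

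Nuclear transport and protein turnover were mixed. Of 35 nucleoporin and transport genes 6 were called higher and 2 lower, with a median of 0.22 log2 units. That is 22.9% called, near the 21.6% of all measured genes. Nup35, a part of the inner ring of the nuclear pore, ranged from -2.58 to -0.37 (median -1.78) and from 0.03 to 1.26 (median 0.93), 5.64-fold higher (95% interval 2.99 to 10.6, adjusted p = 0.00179 in limma). The importin Kpna2 was 2.72-fold higher, while Nup98 was 3.61-fold lower (adjusted p = 0.00412 and 0.00534 in limma). Of 79 genes for ubiquitin ligases and deubiquitinases 16 were called higher and 8 lower, with a median of 0.36. Fbxo15, an F-box protein of early embryonic cells, was 2.94-fold higher. The ubiquitin count called higher lay between 7 and 10 with any 1 embryo of pairs D and I of experiment 1 or of experiment 2 left out, and the nucleoporin count was 3 without pair I of experiment 1 or pair G of experiment 2. Nfs1, the cysteine desulfurase that supplies sulfur for iron-sulfur clusters, had narrow ranges in both experiments. It ranged from -1.63 to -1.11 (median -1.39) in experiment 1 and from 0.79 to 1.43 (median 1.12) in experiment 2, 5.77-fold higher (95% interval 3.95 to 8.42, adjusted p = 7.85e-05 in limma).

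**Figure D2:**
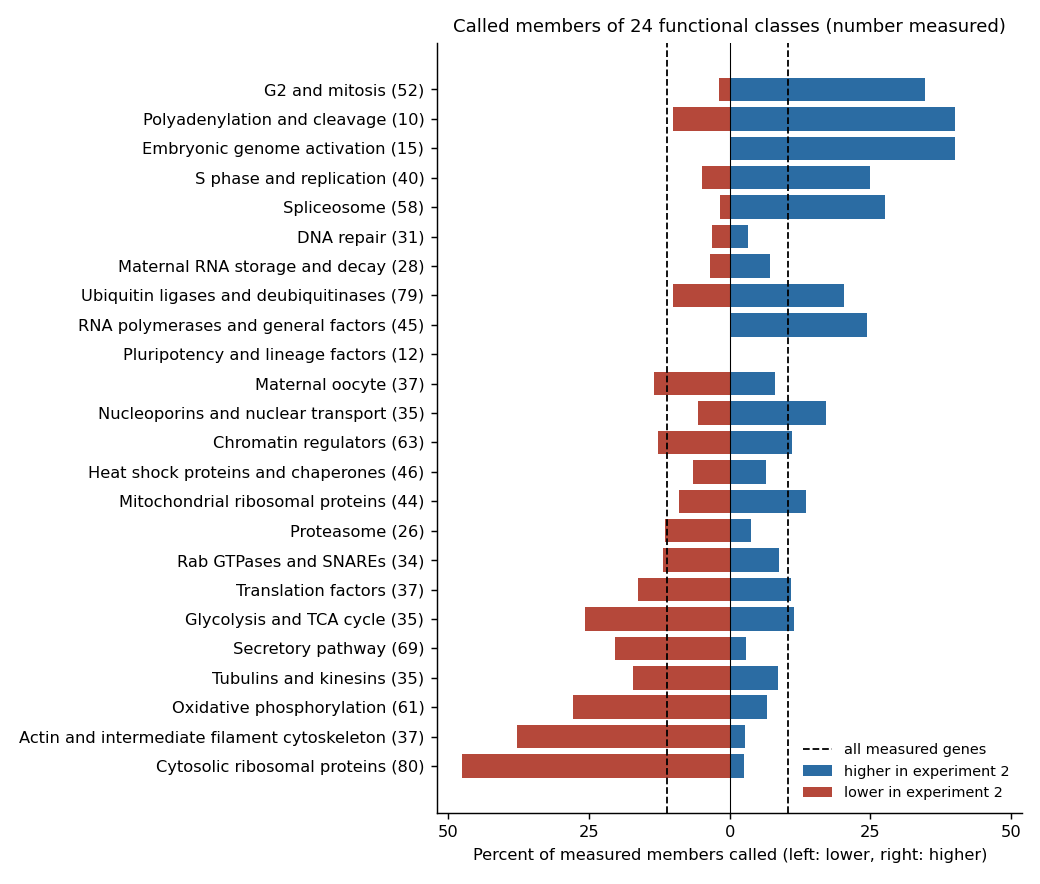
Percent of the measured members of 24 functional classes (rows, with the number measured) that were called, as bars to the right for higher and to the left for lower in experiment 2, ordered by the median difference of the class. Dashed lines mark all measured genes (10.4% higher, 11.2% lower), and the longest bar to the left is that of the cytosolic ribosomal proteins, with 38 of 80 called lower.

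Ribosomal proteins were lower in experiment 2 as a group. Of 80 measured genes of the cytosolic ribosome 38 were called lower and 2 higher, with a median of -1.11 log2 units, a fold of 2.16, and 70 of the 80 differences were negative. Many ribosomal protein genes have processed pseudogenes close in sequence, so a probe may also see those. Rplp2, of the stalk that recruits elongation factors, ranged from 5.01 to 5.97 (median 5.57) in experiment 1 and from 3.35 to 4.25 (median 4.03) in experiment 2, 3.11-fold lower (95% interval 2.05 to 4.71, adjusted p = 0.00184 in limma). Rps20, of the small subunit, ranged from 4.09 to 5.24 (median 4.35) and from 1.64 to 3.18 (median 2.55), 4.05-fold lower (adjusted p = 0.00283 in limma). Cells of the experiments were apart in both. Rpl28 and Rpl13a, of the large subunit, were lower by 5.23-fold and 5.48-fold (adjusted p = 2.23e-04 and 5.33e-04 in limma).

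The members called higher were Rpl36al and Rps27l, each a divergent copy of another ribosomal protein gene. Rps27l, a target of p53, ranged from 1.47 to 2.81 (median 2.18) and from 2.82 to 3.26 (median 3.1), so the experiments met but did not overlap. It was 1.90-fold higher (95% interval 1.24 to 2.90, adjusted p = 0.0345 in limma) and lost its call under 14 of 29 alternatives, and Rpl36al lost its own under 8.

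The ribosomal difference was uneven over embryos. Centred on each gene's mean over the cells, the median of the list was 0.70 and 0.78 log2 units in pairs D and I of experiment 1 and 0.07 in pair L, and it was -0.38, -0.20 and -0.94 in pairs D, G and H of experiment 2. Pair L thus lay nearer to experiment 2 than its fellow embryos did. With pair D of experiment 1 left out 15 genes were called lower, with pair I left out 18 and with pair L left out 41. Without pairs D, G or H of experiment 2 the counts were 28, 25 and 24, embryo means gave 23, leaving out any 1 cell gave 25 to 41, and the scale taken from all probes gave 0 with a median that stayed below 0.

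Genes of oxidative phosphorylation were lower on balance, with some in the opposite direction. Of 61 measured genes 17 were called lower and 4 higher, with a median of -0.67 log2 units. Ndufb7, of complex I, ranged from 0.20 to 2.83 (median 1.47) in experiment 1 and from -5.27 to -1.36 (median -2.77) in experiment 2, 21.6-fold lower (95% interval 8.27 to 56.3, adjusted p = 6.67e-04 in limma). Atp5e, a small subunit of the central stalk of ATP synthase, ranged from 0.26 to 3.6 (median 2.62) and from -1.51 to -0.72 (median -1.01), 10.7-fold lower (95% interval 4.67 to 24.7, adjusted p = 0.00141 in limma). Both were without overlap and were called under every alternative. Cox5a, of cytochrome c oxidase, went the other way, from 1.08 to 1.87 (median 1.51) to 2.24 to 2.88 (median 2.48). It was 2.06-fold higher (adjusted p = 0.0189 in limma), and its call was lost without pair D of experiment 1, without pair G of experiment 2, in embryo means and with the scale from all probes. The electron carrier Cycs was 2.77-fold higher (adjusted p = 0.0139 in limma), and lost its call without pair I of experiment 1, without pair D of experiment 2, in the mean of its probes and with the scale from all probes.

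This list followed the same embryos as the ribosomal proteins. Its centred median was 0.64, 0.81 and -0.01 in pairs D, I and L of experiment 1 and -0.26, -0.30 and -0.49 in pairs D, G and H of experiment 2. The count called lower was 6 without pair D and 8 without pair I of experiment 1, 9 without pair G of experiment 2 and 6 with the scale from all probes. Proteins of the mitochondrial ribosome showed no shift of their median, 0.09 log2 units, which turned to -0.27 after normexp. Of 44 measured genes 6 were called higher and 4 lower, and Mrpl33 was the most extreme of them. It ranged from -0.33 to 2.90 (median 1.62) and from -4.58 to -1.97 (median -3.29), 26.0-fold lower without overlap (95% interval 8.98 to 75.2, adjusted p = 8.49e-04 in limma).

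Other growth and metabolic classes were mixed or lower. Of 37 translation factors 4 were called higher and 6 lower, which is 27.0% called beside 21.6% of all measured genes. The count called lower was 3 without pair D and 2 without pair I of experiment 1, and 3 without pair G of experiment 2. Of 35 genes of glycolysis and the TCA cycle 4 were called higher and 9 lower, with a median of -0.33. Pcx, which feeds pyruvate into the TCA cycle, was 9.88-fold lower, and the glycolytic Aldoa 2.71-fold lower (adjusted p = 0.00627 and 0.0144 in limma), while the pyruvate carriers Mpc1 and Mpc2 were 2.55-fold and 2.42-fold higher. All of these but Pcx lost their calls without pair G of experiment 2, and Aldoa and Mpc1 also without pair D or pair I of experiment 1. Of 69 genes of the secretory pathway 14 were called lower and 2 higher, with a median of -0.35. Rab1b, which directs vesicles from the endoplasmic reticulum to the Golgi, ranged from 1.20 to 2.19 (median 1.67) and from -0.95 to -0.45 (median -0.72), 5.22-fold lower without overlap (95% interval 3.52 to 7.74, adjusted p = 1.32e-04 in limma). The count of secretory genes called lower was 7 without pair D and 8 without pair I of experiment 1, and 8 without pair G of experiment 2. With pair D, I or G left out in the same way, the count of metabolic genes called lower was 3, 3 and 1.

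**Figure D3:**
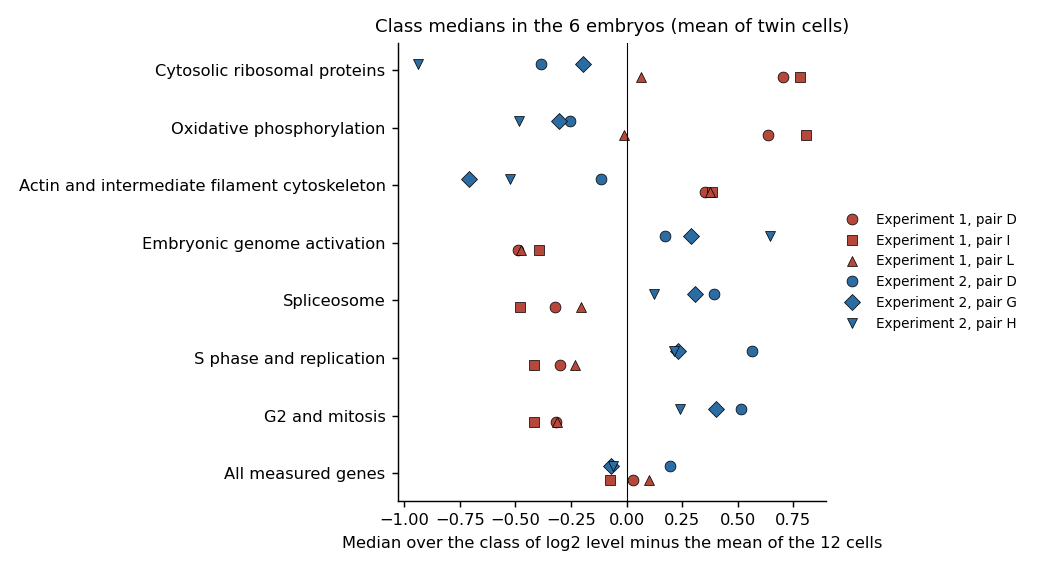
Median of 7 classes and of all measured genes (rows) in each of the 6 embryos, in log2 units (horizontal axis) after centring each gene on its mean over the 12 cells, with 1 point per embryo as the mean of its twins. For the ribosomal proteins pair L of experiment 1 (0.07) lies nearer to 0 than pairs D (0.70) and I (0.78), whereas for G2 and mitosis all embryos of experiment 1 lie at -0.31 or below and all of experiment 2 at 0.24 or above.

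In experiment 1 the ribosomal and oxidative phosphorylation lists varied more over embryos than G2 and mitosis, genome activation and the spliceosome did. The centred median of G2 and mitosis was -0.32, -0.42 and -0.31 in pairs D, I and L of experiment 1 and 0.52, 0.41 and 0.24 in pairs D, G and H of experiment 2. That of genome activation was -0.49, -0.40 and -0.48 against 0.17, 0.29 and 0.64. For the spliceosome it was -0.32, -0.48 and -0.20 against 0.39, 0.31 and 0.13. In each of these classes every embryo of experiment 2 lay above every embryo of experiment 1. The ribosomal and oxidative phosphorylation lists were likewise apart, in the reverse direction. So was the actin list, at 0.35, 0.38 and 0.38 in pairs D, I and L of experiment 1. It stood at -0.12, -0.71 and -0.52 in pairs D, G and H of experiment 2.

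Genes of the actin and intermediate filament cytoskeleton were lower in experiment 2. Of 37 measured genes 14 were called lower and 1 higher, with a median of -0.68 log2 units. Cfl1, which severs actin filaments, ranged from 2.34 to 3.65 (median 2.84) and from -0.85 to 0.70 (median 0.07), 7.70-fold lower (95% interval 4.28 to 13.9, adjusted p = 4.61e-04 in limma). Myh9, the heavy chain of non-muscle myosin, ranged from 1.38 to 2.59 (median 2.50) and from -0.95 to 0.29 (median -0.38), 6.30-fold lower (95% interval 3.86 to 10.3, adjusted p = 2.85e-04 in limma). The cells were apart in both. Removing the genes that also mark other cell types, a step added after the data were seen, left 10 called lower and 1 higher, with a median of -0.50. The count called lower was 14 or 15 whichever embryo was left out, and 10 with the scale from all probes. Of 35 tubulins, kinesins and their partners 6 were called lower and 3 higher, which is 25.7% called beside 21.6% of all measured genes. Tuba1a, an alpha tubulin with close paralogs, ranged from -1.12 to 1.25 (median -0.21) and from -4.40 to -1.70 (median -3.16), 7.82-fold lower (95% interval 3.01 to 20.3, adjusted p = 0.00627 in limma).

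Many markers of other cells also differed between the experiments. Of 33 listed markers of stroma and smooth muscle 10 were measured on all arrays, and 7 were called lower in experiment 2 and 0 higher. Their summed level over the list, in units of the 75th percentile, ran from 79.3 to 250.7 (median 202.9) in experiment 1 and from 2.59 to 6.09 (median 4.82) in experiment 2. A single probe, of Ptprz1, made up 73.7% of this sum in experiment 1 and 17.0% in experiment 2, and the other probes of that gene were rarely above background. Without the genes known from earlier results of these data it ran from 8.37 to 55.01 (median 16.9) and from 2.03 to 4.56 (median 3.62). Of the 33 markers 18 were well above background on all 6 arrays of experiment 1 and 13 on all of experiment 2. Beside these and the counts of the lists below, 6762 and 9254 of all 41174 probes were so. In 13 of the 33 markers every cell of experiment 1 was above every cell of experiment 2, and in 0 the reverse, where 2.83% and 6.84% of all genes on the array were so. Ptprz1, Lgals1, Crip1, Tagln and Vim, known from earlier results of these data, are among these 13 and among the 7 called lower. Both counts were therefore partly fixed by how the list was drawn up. Sparc, of the matrix around mesenchymal cells, was well above background on all 6 arrays of experiment 1 and on 0 of experiment 2. The collagen gene Col1a1 had signals from 0.72 to 6.00 (median 2.82) in experiment 1 and at most 0.057 in experiment 2. In contrast Pdgfra, a defining receptor of fibroblasts, was well above background on 1 array of experiment 1 and 3 of experiment 2.

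The markers of oviduct epithelium, the tissue the embryos were flushed from, behaved alike. Their summed level ran from 12.1 to 97.7 (median 30.0) in experiment 1 and from 0.52 to 3.30 (median 2.29) in experiment 2. Of 24 markers 15 were well above background on all arrays of experiment 1 and 6 on all of experiment 2, and in 8 every cell of experiment 1 was above every cell of experiment 2. The reverse held for 1, the transcription factor gene Pax2, with signals from 0.013 to 0.054 in experiment 1 and from 0.069 to 0.338 in experiment 2. Ovgp1, the glycoprotein that secretory cells of the oviduct release, had signals from 1.12 to 12.4 (median 2.88) in experiment 1 and at most 0.046 in experiment 2. Epcam, an adhesion molecule of epithelia, was well above background on all 12 arrays with overlapping ranges.

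Among the markers of macrophages and blood the summed level ran from 6.84 to 280.5 (median 21.3) in experiment 1 and from 0.36 to 2.72 (median 1.10) in experiment 2, and 8 of 26 markers were seen on all arrays of experiment 1 against 3 in experiment 2. The lysozyme Lyz2 had signals from 4.21 to 218.4 (median 14.8) and at most 0.109. Ptprc, the pan-leukocyte marker, was well above background on 1 array of experiment 1 and 3 of experiment 2. Markers of cumulus and granulosa cells ran low in both, from 0.92 to 2.74 (median 1.41) and from 2.05 to 4.74 (median 3.69), and 12 of the 24 were seen on 0 arrays of experiment 1 and 4 on 0 arrays of experiment 2. Over all probes as well, detection was wider in experiment 2, with 9254 against 6762 probes on all 6 arrays. The part of any of these cells in the class results was not tested. In amplified RNA of 1 sample, RNA from other cells and a different amount of RNA per blastomere cannot be told apart.

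The markers of the blastomere itself overlapped in their sum but not in every gene. Of 17 measured markers 2 were called higher (Tcstv1 and Tcstv3) and 4 lower (Khdc3, Zar1, Tle6 and Padi6). Their summed level ran from 57.8 to 104.7 (median 81.1) in experiment 1 and from 68.2 to 95.7 (median 76.5) in experiment 2, and 17 and 18 of the 19 markers on the array were seen on all arrays of experiment 1 and experiment 2. Oosp1 and Npm2, both abundant in oocytes, made up 28.0 and 28.3% of the sum in experiment 1 and 30.2 and 18.9% in experiment 2, and neither was called. Gdf9, a growth factor of the oocyte, had signals from 4.57 to 10.7 (median 6.73) and from 6.38 to 10.2 (median 8.17). Dppa3, a protein that shields the maternal genome from demethylation, had signals from 4.05 to 11.9 (median 5.41) and from 8.20 to 11.7 (median 9.82). Gdf9 and Dppa3 overlapped between the experiments and were not called. Markers of the labelled cell type were thus seen on every array. Markers of other cells were beside them in both experiments, and the stroma, oviduct and macrophage lists had higher sums in experiment 1. Not every such marker followed. The stroma marker Cnn1 had median signals of 1.89 in experiment 1 and 1.84 in experiment 2. The granulosa marker Amhr2 had medians of 0.48 and 1.64 and was called higher in experiment 2.

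**Figure D4:**
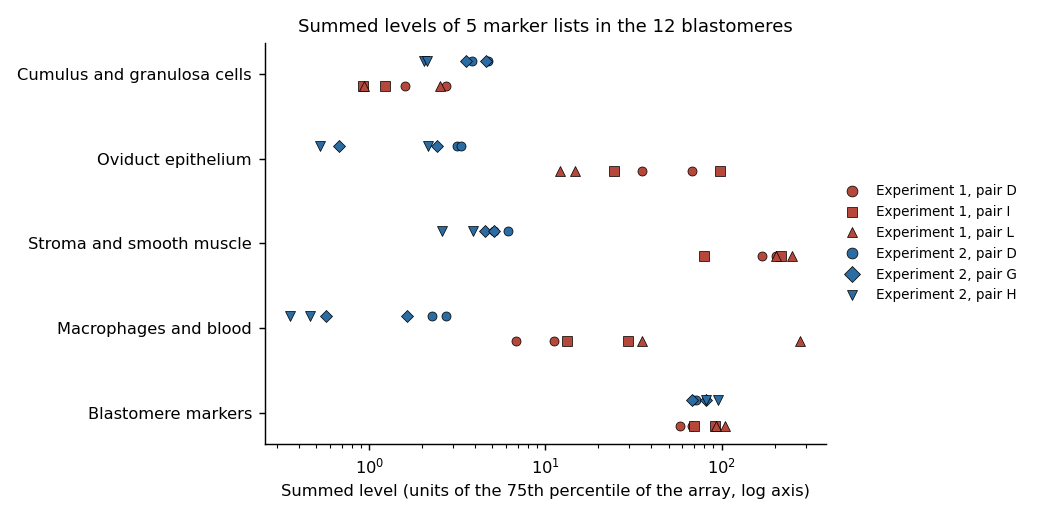
Summed level of each marker list in each cell, in units of the 75th percentile of the measured probes and on a log axis, for the 6 cells of each experiment. The stroma list lies at 79.3 and above in experiment 1 and at 6.09 and below in experiment 2, with 73.7% of its sum in experiment 1 from the single probe of Ptprz1, while the blastomere markers of the experiments overlap.

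Several of the lowest genes of the comparison are on these marker lists, which were drawn up with some of them known. Ptprz1, a receptor phosphatase, ranged from 5.55 to 7.79 (median 7.05) in experiment 1 and from -1.10 to 0.03 (median -0.41) in experiment 2, 165.9-fold lower (95% interval 89.2 to 308.5, adjusted p = 2.06e-07 in limma). The galectin Lgals1 ranged from 2.73 to 4.82 (median 3.90) and from -4.81 to -1.52 (median -3.20), 126.9-fold lower (adjusted p = 3.18e-05 in limma). The experiments were far apart in both. The smooth muscle protein Tagln was 69.4-fold, the LIM protein Crip1 61.9-fold, the keratin Krt18 49.5-fold and vimentin, Vim, 36.5-fold lower (adjusted p = 5.93e-04, 9.70e-05, 0.00139 and 2.85e-04 in limma). Pigt, which attaches proteins to their lipid anchor and is on no marker list, ranged from 4.69 to 6.58 (median 5.03) and from -1.14 to 1.23 (median -0.09), 42.1-fold lower (95% interval 19.2 to 92.1, adjusted p = 7.85e-05 in limma). Apoe ranged from 0.43 to 5.10 (median 1.45) and from -3.35 to -1.75 (median -2.77), 24.4-fold lower (adjusted p = 0.00129 in limma).

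Few of the leading genes could be checked with another probe. Among the 20 genes with the lowest differences 10 had other probes on the array, 15 in all, of which 1 was measured on all arrays and had the same direction. On fewer than 3 arrays of experiment 1 were 11 of these 15 well above background. The other 3 probes of Ptprz1 were well above background on 1 array of experiment 1 each, and the other probe of Pigt on 0, so for these genes the difference rests on a single probe. The second probe of Crip1 was well above background on 6 arrays of experiment 1 and 5 of experiment 2, with signals from 0.82 to 8.87 and from 0.005 to 0.195. Among the 20 highest genes 14 had other probes, 25 in all, of which 2 were measured, both in the same direction and 1 of them called. The other probes of Snapc3 were well above background on 0 arrays of experiment 1 and on 2 and 0 of experiment 2. Those of Polr3k were so on 0 and 3 arrays of experiment 1 and on 5 and 6 of experiment 2.

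Genes with several probes show how far a difference was shared along a transcript. There were 684 genes with 2 or more measured probes, 1463 probes in all. In 475 of them (69.4%, 95% Wilson interval 65.9 to 72.8%) the probes all differed in 1 direction. Where at least 1 probe was called the share was 77.3% (167 of 216 genes), and where none was it was 65.8% (308 of 468). All probes were called in 1 direction in 48 genes, 28 higher and 20 lower, some but not all in 168, and opposite calls occurred in 1 gene. The gap between the highest and the lowest probe had a median of 0.50 log2 units and passed 2 units in 25 genes.

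Seen from the brightest probe, which stands for its gene in the class counts, the other probes followed in direction more often than in call. In 152 genes the representative probe was called. Of their 170 other probes 144 (84.7%) had the same direction, 60 (35.3%) were called in it and 0 were called in the opposite one. Probes of 1 gene share the cell and the array, so their agreement is not a replicate of the experiment.

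**Figure D5:**
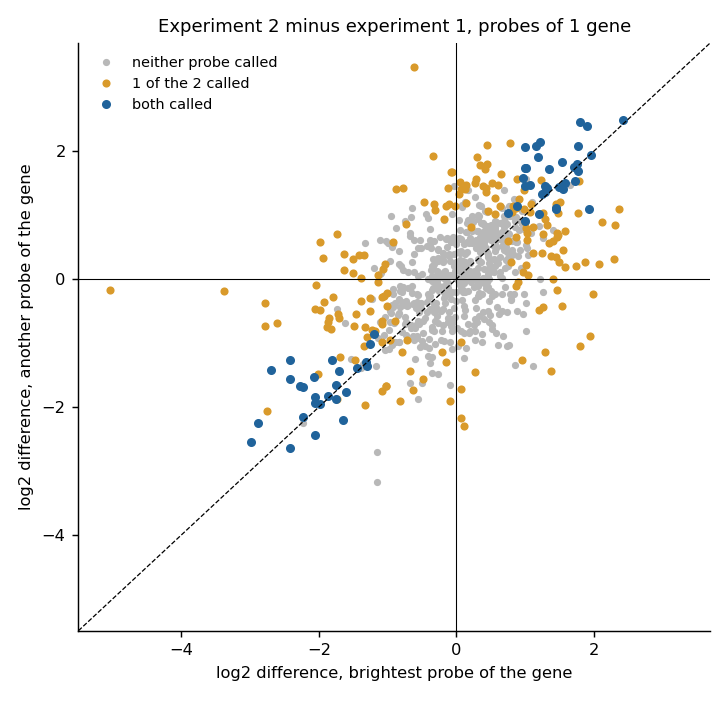
Log2 difference, experiment 2 minus experiment 1, of the brightest probe of each gene (horizontal) against each of its other measured probes (vertical), for 779 pairs of probes. In 60 pairs both probes were called, in 178 a single one and in 541 neither.

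Single genes show the range. The 3 probes of the ribosomal protein gene Rps28 stood at -1.68, -2.16 and -2.23 log2 units, all called (adjusted p = 0.0112, 0.00361 and 0.00335 in limma). Its brightest probe ranged from 3.55 to 5.81 (median 4.93) and from 2.05 to 3.26 (median 2.73). Those of Taf1d, of the factor that recruits RNA polymerase I, stood at 1.37, 1.45 and 1.30 (adjusted p = 0.0387, 0.00957 and 0.0152 in limma). The measured probes of each of these genes were thus all called in 1 direction, although the brightest probe of Taf1d lost its call under 6 alternatives (embryo means, normexp, the scale from all probes, and without pair I of experiment 1 or pair D or pair G of experiment 2). Cnot2, a scaffold of the complex that removes poly(A) tails, was the gene with opposite calls. Its probes stood at -1.29, 1.15 and -0.15 (adjusted p = 0.0327, 0.0155 and 0.768 in limma). Lrrc58, which was called lower at -5.04 by its brightest probe, stood at -0.18 by another (adjusted p = 0.815 in limma). Such pairs may read different transcripts of a gene, which these files do not separate.

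Genes lower in experiment 2 were shorter in the genome. The span from the first to the last base of a gene, in the RefSeq annotation of GRCm38.p6, had a median of 10764.5 bases in the 510 genes called lower that had one, 19548.5 in the 486 called higher and 21639 in all measured genes. Under 10 kb lay 46.1% of those called lower, 23.9% of those called higher and 27.3% of all. In the shortest 20% of genes, from 377 to 7130 bases, 20.6% were called lower and 9.11% higher. Leaving out the ribosomal protein and oxidative phosphorylation lists, a step added after the data were seen, the medians were 13121, 20447 and 22803.5 bases. The share called lower also grew with signal, from 7.04% in the dimmest 20% of genes to 15.8% in the brightest, while the share called higher was 3.05% in the dimmest and 12.2% in the brightest.

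Several classes did not move as groups. The proteasome (1 called higher and 3 lower of 26 measured), chromatin regulators (7 and 8 of 63), DNA repair (1 and 1 of 31), heat shock proteins and chaperones (3 and 3 of 46) and Rab GTPases and SNAREs (3 and 4 of 34) had as many or nearly as many calls in either direction. The medians of these lists changed sign under at least 1 setting, but normexp and the deposited table also moved the median of all probes, to -0.28 and 0.20. Of 12 measured pluripotency and lineage factors 0 were called in either direction. The largest differences among these were Klf2 at -1.54 and Klf5 at -1.44 log2 units (adjusted p = 0.0581 and 0.0773 in limma), both Krüppel-like factors of the early embryo.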

How the data were processed

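Intensity was read by the authors from 12 scans in Feature Extraction 9.1.3.1 of Agilent (per the file headers), and the channel with RNA was used: Cy5 for experiment 1, Cy3 for experiment 2. The deposited value table also holds intensity, which for the measured probes is the processed signal divided by 1 constant per array. Over all its probes, between 0.5 and 62.1% of the values of an array stand at the minimum of that array. How it was made is not given in the sources used here. Per the file headers no dye normalization altered the signals.

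Outlier spots were left out, spots of a probe averaged, and signals divided by the array's 75th percentile of measured probes (those that every array showed well above background), then put on a log2 scale. Of 41174 probes, 22951 were named by accession through RefSeq (GRCm38.p6), 2977 by an older symbol found there, 8503 by the array file alone and 6743 had none. Differences were tested with limma 3.58.1 in R 4.3.3, with embryo as random block (duplicateCorrelation, consensus correlation 0.296), and adjusted over all 5858 probes. Python 3.11.15, pandas 2.3.3, numpy 2.4.6, scipy 1.17.1 and matplotlib 3.10.9 were also used, and scripts were tested on simulated data.

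Members and lists were chosen with earlier results of these data known. Named genes were the 20 highest and 20 lowest called, up to 4 called per list and direction by smallest adjusted p (2 by smallest p where a list had none), up to 10 genes with 3 or more probes called alike or with opposite calls, and all markers. A part of the rule, for genes whose interval lay within 0.5 log2 units of 0, named none. Genes mentioned beyond the rule are said to be so. No spot was saturated, so the alternative without saturated probes was void.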

Additional observations from a re-analysis of the deposited data

Results flagged for a closer look

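Within an experiment, 5 values lay far from the others of their group, of 92 groups of 6 cells examined, where chance alone puts about 1 in 20 groups past the limit used. In experiment 1 the lowest cell of Tdpoz1 was at -4.09 log2 units with the next at -2.80, and the lowest cell of Myh9 at 1.38 with the next at 2.32. The highest cell of Apoe was at 5.10 with the next at 2.17. The summed level of the macrophage and blood markers reached 280.5 in 1 cell of pair L of experiment 1, with the next cell at 35.5. In experiment 2 the lowest cell of Papola was at -0.26 with the next at 0.74. None of these cells closed the gap between the experiments in its gene.

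The Cy3 channel of the experiment 1 arrays, which was not the channel of the labelled RNA, was not used. Of 43379 spots on each array, some were well above background in it. Pair D had 150 and 160 such spots, pair I had 129 and 68, and pair L had 93 and 107. Between 3 and 33 of them per array were among the 1000 brightest spots in Cy5.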

How the results depend on the processing

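Of the 29 alternatives, those that moved the count of 1242 called probes by over 1.5 times were the scale taken from all probes (103 called) and leaving out embryos. Without pair D or pair I of experiment 1, or pair G of experiment 2, 794, 770 and 709 probes were called, and over all embryos and cells left out in turn the counts ran from 709 to 1367. Other settings gave 847 (embryo means) to 1858 (no block) calls. With cell number as a replicate block 1154 probes were called. The numbers pair no cells across embryos, since the labels do not say what they stand for.

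The share of genes whose probes differ in 1 direction was 59.5% with probes on at least 6 arrays (1834 of 3082 genes), against 69.4%, and ran from 66.8 to 72.1% with embryos or cells left out. Of 169 named genes called, 0 changed sign, 33 stayed called under all 29 alternatives and 134 lost their call with the scale from all probes. After normexp the medians of the lists for chromatin regulators (-0.14), DNA repair (-0.09), chaperones (-0.29) and pluripotency factors (-0.32) were negative, where the median of all probes was -0.28. In the deposited table those for the proteasome (0.16), translation factors (0.05) and Rab GTPases (0.09) were positive, by the shift common to all genes there (0.20). The number of cells limits the precision, and genes that were dim on any array were not in the comparison.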

Other observations

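Probes well above background on every array of 1 experiment and on none of the other were also counted. There were 21 such probes, for 20 genes, in experiment 1. In experiment 2 there were 115, for 105 genes. A probe can be in this count while its signal lies only just above background, so it says nothing of the size of a difference.

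Transcripts of milk proteins were among those of experiment 1. They were looked up after their values had been seen and are on no list. Wap, whey acidic protein, had signals from 4.76 to 16.4 (median 9.72) in units of the 75th percentile in experiment 1 and from 0.006 to 0.232 (median 0.059) in experiment 2, without overlap. Csn2, beta casein, had signals from 0.374 to 1.52 (median 0.776) in experiment 1. In experiment 2 they were at most 0.033, and it was well above background on 0 arrays. Csn1s1, alpha casein, had signals from 0.362 to 1.40 (median 0.571) and at most 0.007, again on 0 arrays of experiment 2. Not all milk protein genes were seen: Csn3 was well above background on 0 arrays of experiment 1 and 2 of experiment 2, and Lalba on 2 and 3. The part of these transcripts in the class results was not tested.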
